A study of Mus musculus with 82 samples.

Results

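Chromatin accessibility was followed from day 3 to day 7 in mouse embryonic fibroblasts driven toward pluripotency with OSKM, a set of 4 factors made up of Oct4, Sox2, Klf4 and c-Myc. The Flag day 7 peak list was set against the Flag day 3 list on chromosomes 1 to 19, X and Y. A day 7 peak with no base in common with any day 3 peak was taken as an opening site, and a day 3 peak with no base in common with any day 7 peak as a closing site. This gave 14546 opening sites among 42439 day 7 peaks and 8271 closing sites among 36375 day 3 peaks. The other 27893 day 7 peaks and 28104 day 3 peaks overlapped and are called shared. The 4 ATAC-seq lists of the series hold 148455 peaks in all.

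The cells were OG2-MEFs, fibroblasts with an Oct4-GFP reporter, infected at passage 2 with retrovirus from Plat-E packaging cells and kept in iCD1 or mESC medium with vitamin C. Both Flag groups carried OSKM and the Flag construct, which is read here as the control, and differed in the day of harvest. The comparison arm carried OSKM with RNase H1(D209N), an RNase H1 with a substitution in its catalytic site, called D209N below. Its lists held 29189 peaks at day 3 and 40452 at day 7, against 36375 and 42439 in Flag. With a shorter day 3 list, more day 7 peaks count as opening and fewer day 3 peaks can close. This bears on every comparison of the arms below. The series holds 82 samples, of which 8 are ATAC-seq, in 4 groups of 2 replicates. One list was deposited for each group, so no value has a replicate error, no test between days was possible, and intervals are Wilson 95% intervals for counting error only. The lists give positions and names without heights or read counts. A site absent from a list may still be accessible below the threshold of the peak caller. The infected cells are a mixture, so a site open in fewer cells and a site less open in every cell cannot be told apart.

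ATAC-seq uses a transposase that inserts sequencing adapters where DNA is not covered by nucleosomes, and its peaks lie at gene starts and at distal elements such as enhancers. In reprogramming, the introduced factors bind both closed and open chromatin. The cells pass through a mesenchymal to epithelial transition in which fibroblast genes are silenced and cell junction genes are activated, and most pluripotency genes follow later. Gene starts rich in CpG dinucleotides tend to be open in many cell types, while distal elements differ more between cell types.

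Opening and closing sites were narrow beside the shared peaks. The median width was 285 bp for opening sites, 315 bp for closing sites, and 608 bp for shared peaks at day 7. Opening sites made up 34.3% (33.8 to 34.7) of the day 7 list and covered 4.63 Mb, against 18.5 Mb under shared peaks. Closing sites made up 22.7% (22.3 to 23.2) of the day 3 list and covered 2.88 Mb. Among peaks wider than the median of their own list there were 2018 opening and 1492 closing sites. The excess of opening over closing sites follows from the longer day 7 list, since shared peaks were nearly equal in number (27893 at day 7, 28104 at day 3). With only the widest day 7 peaks, as many as at day 3, the counts were 10036 opening and 9763 closing. Lists of equal length give nearly equal counts by construction, so this setting cannot test the excess.

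Opening sites lay in groups more often than closing sites. Within 10 kb of another site of the same class lay 26.9% of opening and 12.0% of closing sites, and 35.6% of shared day 7 peaks. The classes differ in number, and a larger class has closer neighbours. The median distance to the nearest shared peak was 16.5 kb for opening sites and 24.6 kb for closing sites, and 5.17% and 4.26% lay within 1 kb of a shared peak. The shared peaks were also wider at day 7. Over 27248 shared peaks that matched 1 to 1, the median ratio of day 7 to day 3 width was 1.10. At gene starts, 15.6% of such pairs were more than 1.5 times wider at day 7 and 1.23% more than 1.5 times narrower, and elsewhere the shares were 18.2% and 11.7%.

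Few sites of either class lay at gene starts, and closing sites were nearly all distal. A gene start window runs from 250 bases before to 50 bases after an annotated start in the RefSeq promoter table of GRCm38.p6, which holds 32851 windows. Such a window was touched by 7.37% (6.96 to 7.81) of opening sites, 1.70% (1.45 to 2.01) of closing sites and 35.1% (34.6 to 35.7) of shared day 7 peaks. The table covers 17492 of 21887 protein-coding genes, so these shares are minimums. Elsewhere inside a coding gene lay 50.6% of opening and 49.4% of closing sites, and outside coding genes 42.1% and 48.9%. The median distance to the nearest coding gene start with a window was 28.5 kb for opening and 66.2 kb for closing sites, against 13.1 kb for shared day 7 peaks. These medians rest on the 14080 opening and 7942 closing sites of chromosomes with windows, and a missing window lengthens a distance. The order of the 3 classes was the same with 2.5 kb on each side of the start, at 16.5%, 7.17% and 41.3%.

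**Figure D1:**
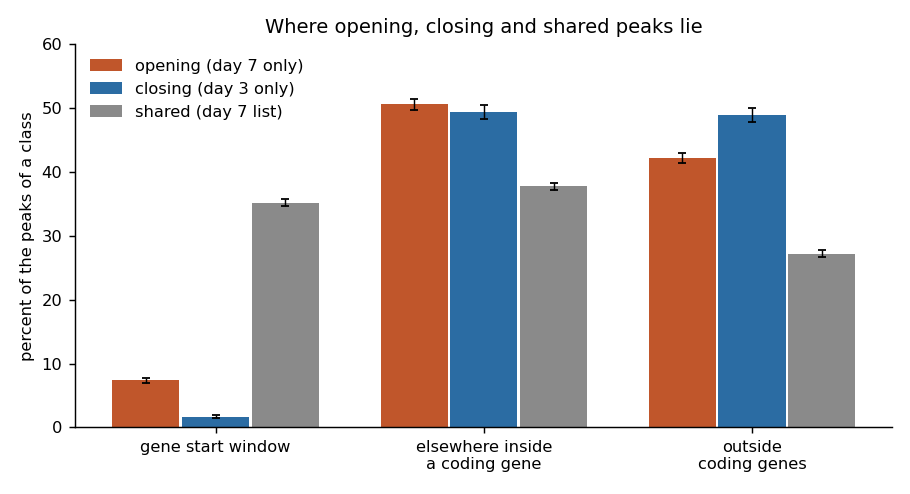
Bars give the percent of opening sites, closing sites and shared day 7 peaks in a gene start window, elsewhere inside a protein-coding gene and outside such genes, with Wilson 95% intervals. Gene start windows held 35.1% of shared peaks, 7.37% of opening sites and 1.70% of closing sites.

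Closing sites lay in gene-poor surroundings. The median number of protein-coding genes within 500 kb of the site was 6 for closing sites, 12 for opening sites and 11 for shared day 7 peaks. No coding gene lay within that distance of 363 closing sites (4.39%), compared with 79 opening sites (0.543%). The interquartile range ran from 3 to 11 genes around closing sites and from 7 to 21 around opening sites.

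**Figure D2:**
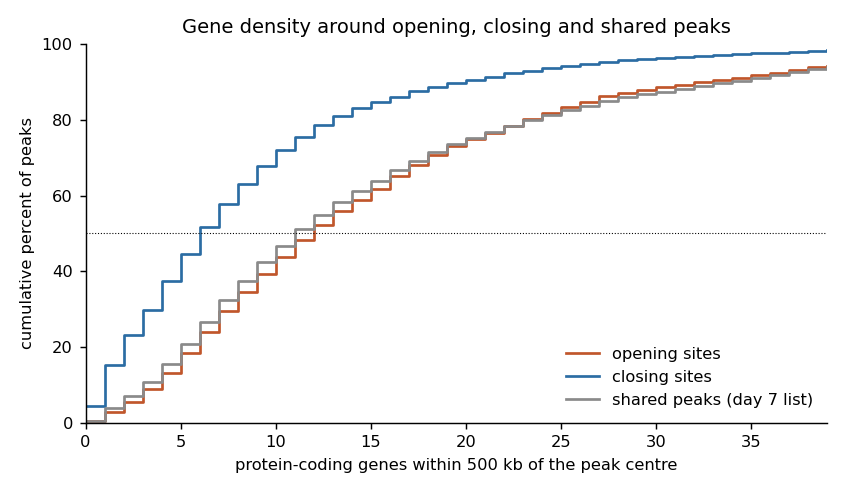
Lines give the cumulative percent of peaks by the number of protein-coding genes within 500 kb of the peak centre, up to 39 genes. The closing line runs above the others, with a median of 6 genes, while the opening and shared lines run close together with medians of 12 and 11.

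The same division appeared between chromosomes. On chromosome 7, with 14.0 coding genes per Mb, 16.5% of day 3 peaks closed, and on chromosome 1, with 6.17 per Mb, 27.9% did. Across the 19 autosomes the closing share had a Spearman correlation of -0.863 with gene density and the opening share one of 0.622. These points come from the same pair of lists, and base composition and read depth, which were not tested, may vary along with gene density. In D209N the correlation was -0.868 for closing and 0.384 for opening. Chromosome X stood apart: 217 of its 876 day 7 peaks were opening sites (24.8%, 22.0 to 27.7) and 275 of its 942 day 3 peaks closing sites (29.2%, 26.4 to 32.2). Autosomes ranged from 30.0% to 38.2% for opening and from 16.5% to 27.9% for closing. X was the 1 chromosome with more closing than opening sites in Flag. In D209N it had 294 opening and 134 closing sites (34.5% and 19.2%), where the whole lists had 16315 and 4729 (40.3% and 16.2%) and the autosomes 37.1% to 44.2% opening. X thus had the lowest opening share among X and the autosomes in both arms.

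**Figure D3:**
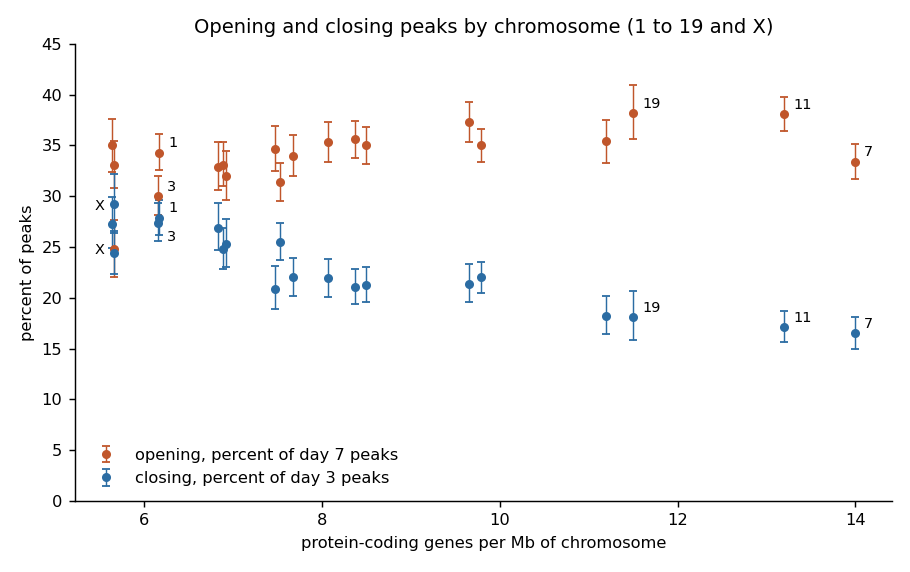
Points give, for chromosomes 1 to 19 and X, the percent of day 7 peaks that were opening sites and of day 3 peaks that were closing sites, against protein-coding genes per Mb, with Wilson 95% intervals. The closing share runs from 27.9% on chromosome 1 to 16.5% on chromosome 7, and on X the closing share of 29.2% lies above the opening share of 24.8%.

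The genes with the largest surplus of opening sites were Camta1, Arhgef10l and Thsd4. Each site was given to the protein-coding gene that holds its centre or the nearest within 20 kb, which placed 78.8% of opening and 65.7% of closing sites. Camta1, a calmodulin-binding transcription activator, had 12 opening and 2 closing sites over 802.2 kb. Arhgef10l, a guanine nucleotide exchange factor, had 11 and 1, and Septin9, a cytoskeletal GTPase, had 11 and 2. Mical3, an enzyme that oxidises actin, had 10 and 1. Thsd4, a protein of fibrillin microfibrils, went from 1 peak at day 3 to 11 at day 7, of which 10 were opening sites. Srcin1, a regulator of Src kinase, had no peak at day 3 and 9 opening sites at day 7 in 65.9 kb, which is 13.7 per 100 kb and the densest of the 8 genes. Sh3pxd2a, a scaffold protein of podosomes, and Rnf220, a ubiquitin ligase, had 9 opening and no closing sites each. All 8 also had more opening than closing sites in D209N, from 4 opening and 1 closing for Sh3pxd2a to 12 and 1 for Camta1.

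The genes with the largest surplus of closing sites were long genes. Nrxn3, a presynaptic adhesion protein, had 14 closing and 2 opening sites. Over the 1612.2 kb of Nrxn3 the peaks numbered 17 at day 3 and 5 at day 7. Ccser1, a long gene of little-known function, had 12 closing and no opening sites, and Lrp1b, a lipoprotein receptor family member, 9 and none. Cdh18, a cadherin of the nervous system, had 9 closing and 2 opening sites, and Adgrl3, an adhesion G protein-coupled receptor, 8 and 1. Dpp10 and Kcnip4, both partners of potassium channels, had 7 closing and no opening sites each. Ptprd had the same counts and was left out by alphabetical order. The 7 genes described spanned 808.7 to 2058.3 kb and had between 0.437 and 0.998 closing sites per 100 kb. In D209N 6 of the 7 had more closing than opening sites, and Kcnip4 had 3 of each.

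**Figure D4:**
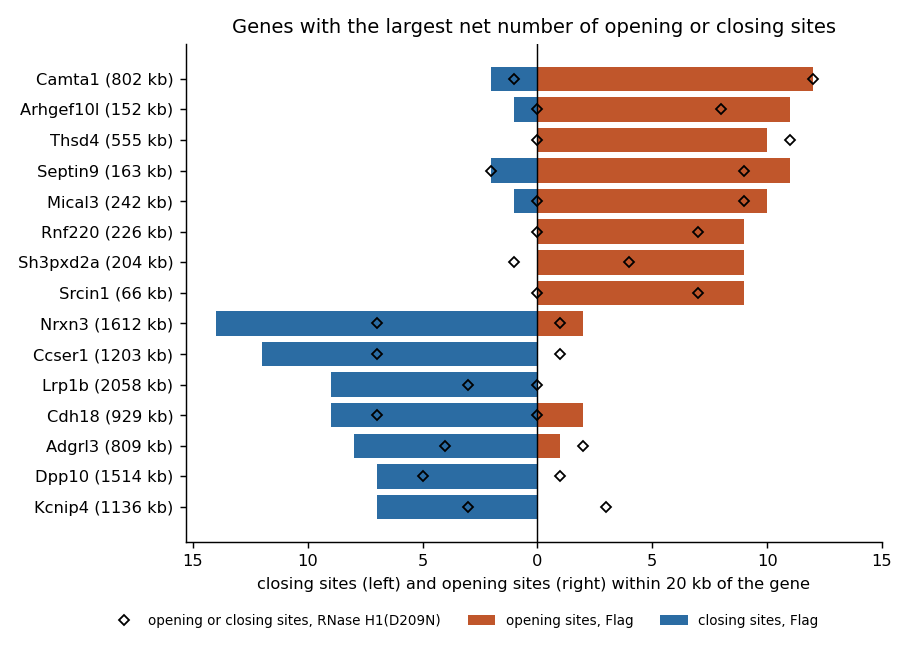
Bars give Flag closing sites (left) and opening sites (right) for the 8 opening and 7 closing genes described, with the length of each gene, and diamonds give the same counts in D209N. The closing genes run from 808.7 to 2058.3 kb and the opening genes run from 65.9 to 802.2 kb.

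Gene length and the balance of sites went together over all genes. Opening sites outnumbered closing sites 3.84 to 1 at genes under 10 kb, 1.90 to 1 at genes of 50 to 200 kb, and 0.694 to 1 at the 227 genes over 500 kb. Of those 227 genes, 122 had more closing and 61 more opening sites. Over all 21887 coding genes 5724 (26.2%) had more opening and 2154 (9.84%) more closing sites. A surplus of at least 3 was found at 785 genes for opening, with a median length of 83.9 kb, and at 192 for closing, with a median length of 283 kb.

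The widest opening sites lay mostly inside or beside genes that were also accessible in D209N at day 7. The widest, 1935 bp on chromosome 11 from 51855554 to 51857488 (mm10), lay inside Jade2, a subunit of a histone acetyltransferase complex. One of 1222 bp covered the start of Six4, a homeobox factor, at chromosome 12 from 73112308 to 73113529. Others lay in Cxxc5, a CXXC zinc finger protein (1647 bp), Eif3k, a translation initiation subunit (1235 bp), and Rcor1, a subunit of a histone deacetylase complex (1185 bp). A site of 1221 bp lay 0.573 kb from Camk2n1, an inhibitor of a calmodulin-dependent kinase. All 6 overlapped a D209N day 7 peak, and those in Jade2, Cxxc5 and Rcor1 a D209N day 3 peak as well. The widest closing site, of 1296 bp on chromosome 4 from 27945958 to 27947253, lay 866 kb from the nearest coding gene, the ephrin receptor gene Epha7. Sites of 1295 and 1210 bp lay inside Nckap5 and Clstn2, a synaptic adhesion protein. Those nearest Plch1 (1198 bp), Phkb (1177 bp) and Ctsc (1160 bp) lay 85.6, 94.9 and 5.51 kb from these genes. None of the 6 lay at a gene start window, and those nearest Phkb and Ctsc were still listed in D209N at day 7.

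Opening sites were most crowded in short stretches of chromosomes 4, 8 and 11. Among windows of 200 kb, chromosome 4 from 141200001 to 141400000 held 17 opening and 2 closing sites, around Epha2, an ephrin receptor, and Arhgef19, another exchange factor. The window with Rhou, an atypical small GTPase (chromosome 8 from 123600001 to 123800000), held 15, and the one with Srcin1 (chromosome 11 from 97400001 to 97600000) also held 15. A further window on chromosome 11, from 98600001 to 98800000, held 14 opening and no closing sites and contains Thra, a thyroid hormone receptor, Nr1d1, a clock repressor, and the gasdermin genes Gsdma, Gsdma2 and Gsdma3. The window with Arhgef10l and the Padi genes, which encode enzymes that convert arginine to citrulline, held 13. Closing sites were more scattered. The fullest window, on chromosome 11 from 48800001 to 49000000, held 8 closing and 2 opening sites and contains Irgm1 and Tgtp1, interferon-inducible GTPases. A window on chromosome 13 from 21800001 to 22000000 held 7 closing and 4 opening sites in a histone gene cluster with H2bc22, H2bc23 and Zfp184. One on chromosome 3 with Camk2d, a calmodulin-dependent kinase, held 7 closing and 5 opening sites. The window with Dcdc5 held 6 closing and no opening sites, and the one with Npnt, an integrin ligand, 6 and 2.

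Among the 17492 coding genes with a start window, 9499 (54.3%) had a peak there on both days, 921 (5.27%) gained one by day 7 and 95 (0.543%) lost one. A gene gained a start peak when a window was touched at day 7 and none at day 3. Of the 921 gains, 732 came from an opening site and 189 from the edge of a shared peak, and of the 95 losses 65 came from a closing site. Of the genes that gained a start peak in Flag, 75.9% had one in D209N at day 7, and 15.0% had one in D209N at day 3. Of the 95 that lost one, 19 (20%) had one in D209N at day 3 and 43 (45.3%) at day 7, and 34 of these gained it there between the days. For comparison, of the 9499 genes with a start peak on both Flag days 91.9% had one in D209N at day 3 and 99.3% at day 7. Of the 6977 with none on either Flag day, 0.201% and 2.05% did.

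The gene starts of 7 genes of the pluripotency, epithelial, mesenchymal and matrix lists show what gained and lost starts look like. The sequences below are the 150 bases before the start, from RefSeq on GRCm38.p6, read on the gene's strand. Capitals mark a GC box (GGGCGG, the core bound by Sp and Klf factors), an AP-1 site (TGANTCA) or a CCAAT box (CCAAT), on either strand. The gained starts with the widest peaks were those of Spint1 (chr2:119237210-119237359, plus strand), a membrane protease inhibitor of epithelia, Esrrb (chr12:86421494-86421643, plus), a nuclear receptor of naive pluripotency, Grhl3 (chr4:135573633-135573782, minus), an epithelial transcription factor, Prrx2 (chr2:30845217-30845366, plus), a mesenchymal homeobox factor, and Sparc (chr11:55420081-55420230, minus), a matrix glycoprotein.
Spint1: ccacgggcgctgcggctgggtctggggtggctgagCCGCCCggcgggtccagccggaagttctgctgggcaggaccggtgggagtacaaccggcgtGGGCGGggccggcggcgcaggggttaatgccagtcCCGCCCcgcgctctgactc
Esrrb: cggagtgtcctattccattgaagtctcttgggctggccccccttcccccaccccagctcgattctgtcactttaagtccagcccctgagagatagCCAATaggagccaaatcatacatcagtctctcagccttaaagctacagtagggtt
Grhl3: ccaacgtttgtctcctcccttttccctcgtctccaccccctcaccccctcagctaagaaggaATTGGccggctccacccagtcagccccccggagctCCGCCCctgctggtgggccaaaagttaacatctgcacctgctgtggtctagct
Prrx2: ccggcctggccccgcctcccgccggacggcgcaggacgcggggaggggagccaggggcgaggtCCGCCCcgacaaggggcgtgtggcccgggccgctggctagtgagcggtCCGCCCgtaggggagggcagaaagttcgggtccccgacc
Sparc: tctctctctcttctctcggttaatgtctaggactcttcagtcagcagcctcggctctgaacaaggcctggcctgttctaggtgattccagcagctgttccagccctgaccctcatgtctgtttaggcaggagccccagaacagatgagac

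Among the 3 lost starts of these lists are those of Zfp42 (chr8:43307010-43307159, minus strand), which encodes the pluripotent cell marker Rex1, and Arhgef16 (chr4:154299896-154300045, minus), a guanine nucleotide exchange factor of epithelia.
Zfp42: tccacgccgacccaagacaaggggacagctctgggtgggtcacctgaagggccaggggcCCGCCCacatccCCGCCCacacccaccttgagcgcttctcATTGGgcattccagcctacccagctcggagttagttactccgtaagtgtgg
Arhgef16: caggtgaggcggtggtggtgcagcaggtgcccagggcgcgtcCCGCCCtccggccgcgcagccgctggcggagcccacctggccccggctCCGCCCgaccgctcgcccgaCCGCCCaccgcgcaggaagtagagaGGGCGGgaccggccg
The Spint1 stretch held 3 GC boxes and that of Prrx2 2, and those of Esrrb and Sparc held none. Among the lost starts Zfp42 held 2 and Arhgef16 4, while that of Runx2, not printed, held none. Over all windows a GC box was rarer in lost than in gained windows, as given below. None of the 7 held an AP-1 site. A match is a description of letters and does not show binding. The Spint1 peak spanned 971 bp and lay over the start, the Esrrb peak 544 bp from 19 bp after it, and the Zfp42 peak 408 bp. Neither outer end of Esrrb had a peak within 1 kb on either day, so this peak lies at an internal start.

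Over all windows the gained starts resembled kept starts in base content more than in CpG content. The median GC content was 61.7% in 1189 gained windows, 62.3% in 10976 kept windows, 52.7% in 130 lost windows and 47.7% in 8968 windows without a peak on either day. The ratio of observed to expected CpG was 0.643, 0.797, 0.366 and 0.203 in the same order. A GC box was present in 60.8% (58.0 to 63.5) of gained, 70.6% (69.8 to 71.5) of kept and 33.8% (26.3 to 42.3) of lost windows, and in 46.2% of all windows. The ETS core CCGGAAG was present in 6.90% (5.59 to 8.48) of gained and 19.5% (18.8 to 20.3) of kept windows. The CCAAT box was present in 27.7% (25.2 to 30.3) of gained, 39.5% of kept and 38.2% of all windows. The AP-1 site was present in 7.65% (6.28 to 9.30) of gained, 4.16% of kept and 10.8% (6.52 to 17.3) of lost windows, against 10.3% of windows without a peak and 6.99% of all windows. The TATA box (TATAAA) was present in 18.5% (12.7 to 26.0) of lost windows, 6.90% of gained and 5.59% of kept ones, against 21.8% of windows without a peak and 12.6% of all windows. The octamer ATGCAAAT, which Oct4 binds, was present in 1.18% of gained, 4.62% (2.13 to 9.70) of lost and 1.66% of all windows. Motifs were searched on both strands, the GC box can overlap the related KLF/SP letters GGGNGGGG, and base content differs between the groups of windows, which no share here was adjusted for.

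Gene lists were described by start windows and by the balance of sites within 20 kb. Over all coding genes 26.2% had more opening and 9.84% more closing sites, and the shares of the lists are to be read against these. Site totals of the lists are to be read against the 11466 opening and 5437 closing sites near all coding genes. Over the 26 lists, 30 of the 416 members with a window gained a start peak (7.21%, against 5.27% of all genes) and 4 lost one. With 1 kb on each side of the start in place of the window, 21 of the 30 gains and 3 of the 4 losses were still found. The other 9 gains and the loss at Runx2 had a peak near the start on both days.

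Among 25 pluripotency genes with a window, Esrrb gained and Zfp42 lost a start peak (4.00% each, against 5.27% and 0.543% of all genes). Of the others, 8 kept one, among them Sox2 and Klf4, which were also delivered by retrovirus, and 15 had none, among them Nanog. With 1 kb on each side of the start, 4 of the 25 gained and 2 lost a peak, while 939 and 85 of all 17492 genes did. Reads from the delivered cDNA can map to the exons of the 4 factor genes, and their part in those peaks was not tested. Sites near the 40 genes numbered 24 opening and 13 closing, against 11466 and 5437 over all 21887 coding genes. Of the 40 genes 40% had more opening and 17.5% more closing sites, both above the shares of all genes. Sall1, a zinc finger factor, had 3 opening sites, and Tbx3, Nr5a2 and Trim71 had 2 each, without closing sites. Zfp42 had 3 peaks at day 3, all closing sites, and Nr0b1, an orphan nuclear receptor, had 2 at day 3, both closing. In D209N neither gene had a closing site, and Zfp42 kept its start peak.

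Epithelial genes held more opening than closing sites, as did all coding genes together and the mesenchymal and matrix lists described next. Among 29 genes of adhesion and junctions 16 had more opening and 3 more closing sites (55.2% and 10.3%, against 26.2% and 9.84% of all genes). Cgnl1, a junction protein, had 6 opening sites, and Tjp1, a scaffold of tight junctions, Pard6b, a polarity protein, and Jup, a desmosome protein, had 3 each. The 3 genes with more closing sites were Cdh1, which encodes E-cadherin, with 2 and no opening site, Pkp2 with 3 and 1, and F11r with 2 and 1. In D209N Cdh1 had 5 opening and no closing sites. Ocln, a tight junction protein, gained a start peak. Among 28 epithelial regulators and keratins 14 had more opening and 4 more closing sites (50% and 14.3%). Of the 15 with a window, Spint1 and Grhl3 gained and Arhgef16 lost a start peak (13.3% and 6.67%, against 5.27% and 0.543% of all genes). Krt18, a simple keratin, Esrp2, an epithelial splicing factor, and Cdh3, which encodes P-cadherin, had 3 opening and no closing sites each. The 4 with more closing sites, Ovol1, Ehf, Klf5 and Arhgef16, had 1 closing and no opening site each.

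Mesenchymal and fibroblast genes had sites of both classes nearby. Of 24 mesenchymal transition factors 16 had more opening and 2 more closing sites (66.7% and 8.33%, against 26.2% and 9.84% of all genes), with 37 opening and 10 closing sites in all. Snai1, a repressor of E-cadherin, had 3 opening sites and Tcf4 had 7 opening and 3 closing. Zeb1 and Runx2 had 1 closing and no opening site. Prrx2 and Foxf2 gained a start peak. Of 31 matrix genes 17 had more opening and 7 more closing sites (54.8% and 22.6%), so both shares were above those of all genes. Col1a1 and Col5a1, collagen chains, Sparc and Timp2 had 3 opening and no closing sites, while Fn1, which encodes fibronectin, and Tnc, a matrix glycoprotein, had 2 closing and no opening sites. Of 27 surface and contractile genes 9 had more opening and 4 more closing sites (33.3% and 14.8%). Among them Myl9, a myosin light chain, and Itga11, a collagen receptor, gained a start peak, and Cdh2, which encodes N-cadherin, had 3 closing sites and 1 opening site. As a check of the cell label, a peak within 1 kb of a gene end was listed on both days for 19 of these 27 genes (70.4%) and 21 of the 31 matrix genes (67.7%), against 55.2% of all coding genes and 28 of 30 cell cycle genes. Among common fibroblast markers, Col1a1, Col1a2, Twist1 and Twist2 had a peak there on both days, and Thy1, Pdgfra and Prrx1 had none on either day.

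The Wnt pathway had the most start gains of any list. Of 21 members with a window 6 gained a peak (28.6%, against 5.27% of all genes). These were the ligands Wnt3, Wnt7a and Wnt11, the Wnt antagonist Sfrp2, the nuclear factor Lef1, and Rnf43, a ubiquitin ligase that removes Frizzled receptors. The Lef1 peak spanned 184 bp, and with 1 kb on each side Lef1 and Rnf43 had a peak on both days. This left 4 gains, as many as in the pluripotency and neural lists by that measure. Of all 17492 genes 939 gained a peak by it. Of all 32 members 21 had more opening and 2 more closing sites (65.6% and 6.25%, against 26.2% and 9.84% of all genes). The list had 47 opening and 9 closing sites in all. Tcf7l1, a repressor of pluripotency targets, had 5 opening and 1 closing site, and Wnt11 had 4 opening sites. The 2 with more closing sites, Lrp5 and Lrp6, are the Wnt coreceptors, with 1 closing and no opening site and with 3 closing and 1 opening. Of 18 TGF-beta and BMP pathway genes with a window Tgfb2, Bmpr2 and Inhba gained a start peak (16.7%, against 5.27% of all genes). Each came by the edge of a shared peak, and none of the 3 was a gain within 1 kb. Of all 28 members of this list 11 had more opening and 5 more closing sites (39.3% and 17.9%). Smad3, an effector, had 6 opening and 1 closing site, the inhibitors Smad7 and Smad6 had 5 and 1 and 4 and 1, and the receptor gene Bmpr2 had 3 closing sites and no opening site.

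Factors of fibroblast enhancers differed from gene to gene. Of 15 AP-1 genes 10 had more opening (66.7%, against 26.2% of all genes) and none more closing sites (against 9.84%). Sites near them numbered 13 opening and 1 closing. Of the 13 with a window, 2 gained a start peak (15.4%, against 5.27% of all genes). Batf3 gained one of 760 bp by an opening site, and Junb one of 348 bp that had another peak within 1 kb at day 3. In the list of 24 TEAD, RUNX, CEBP and NFI factors 13 had more opening and 5 more closing sites (54.2% and 20.8%). Of the 20 with a window, Tead2 and Runx3 gained and Runx2 lost a start peak (10% and 5%, against 5.27% and 0.543% of all genes). Tead2 and Runx2 had a peak within 1 kb on both days. Cebpb and Nfic had 4 opening and no closing sites, Runx3 went from no peak to 3, and Nfib had 5 closing sites and 1 opening site. Yap1, a Hippo pathway coactivator, had 2 closing and no opening sites, and its paralogue Wwtr1 had 4 opening and 1 closing. In the cartilage list Sox5 had 5 closing and 2 opening sites and Sox6 5 and 1.

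Genes of general cell functions were open at their starts on both days. All 21 R-loop processing genes, all 24 cell cycle genes and all 15 housekeeping genes with a window kept a start peak, against 54.3% of all genes. Near the 26 R-loop processing genes lay 2 opening and 3 closing sites, against 11466 and 5437 over all 21887 coding genes. Of 31 chromatin regulators 29 kept and Kdm5b, a histone demethylase, gained a start peak (3.23%, against 5.27% of all genes). Dnmt3a, a DNA methyltransferase, had 4 opening and no closing sites, and Tet2, which oxidises methylcytosine, had 4 closing and no opening sites. Of 17 interferon and sensing genes Ifit3, an interferon-induced gene, lost its start peak (5.88%, against 0.543% of all genes). Of 17 glycolysis and hypoxia genes with a window Slc16a3, a lactate exporter, gained one (5.88%, against 5.27%). Vegfa had 3 opening sites. The gain at Trp53 came from a window only, since a peak lay within 1 kb on both days.

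Lists of other cell types lay on both sides of the 26.2% of all genes that had more opening sites. Of 20 neural genes 13 had more opening and 2 more closing sites (65.0% and 10.0%), and Sox1, a neural progenitor factor, and Nes, an intermediate filament, gained start peaks of 778 and 1092 bp. Nkx2-2 and Pou3f2 had 4 opening sites each, the latter with 1 closing site. Of 17 muscle genes 8 had more opening and none more closing sites (47.1%), and Pax3 and Nkx2-5 had no peak at day 3 and 3 at day 7. Of 13 endothelial genes 8 had more opening sites and 1 more closing sites (61.5% and 7.69%). The keratinocyte (20%), germline (25%) and adipocyte, bone and cartilage (21.1%) lists lay below the share of all genes, the last with 9 opening and 12 closing sites. The blood and macrophage list had 8 opening and no closing sites over 16 genes, of which 31.2% had more opening sites. A peak within 1 kb of a gene end was listed on both days for 4 of them (25%, against 55.2% of all coding genes). These were Spi1, Cd68, Cd14 and Ikzf1, and Tal1 had one at day 7 only. The other 11, among them Ptprc, Itgam and Cd3e, had none there on either day. Start windows of the blood, endothelial, keratinocyte, trophoblast and germline lists showed no gain or loss. With 1 kb on each side, 3 trophoblast genes, 1 blood gene and 1 keratinocyte gene counted as gains. The genes of the lists differ in length and in peak number, and no list was tested against others.

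**Figure D5:**
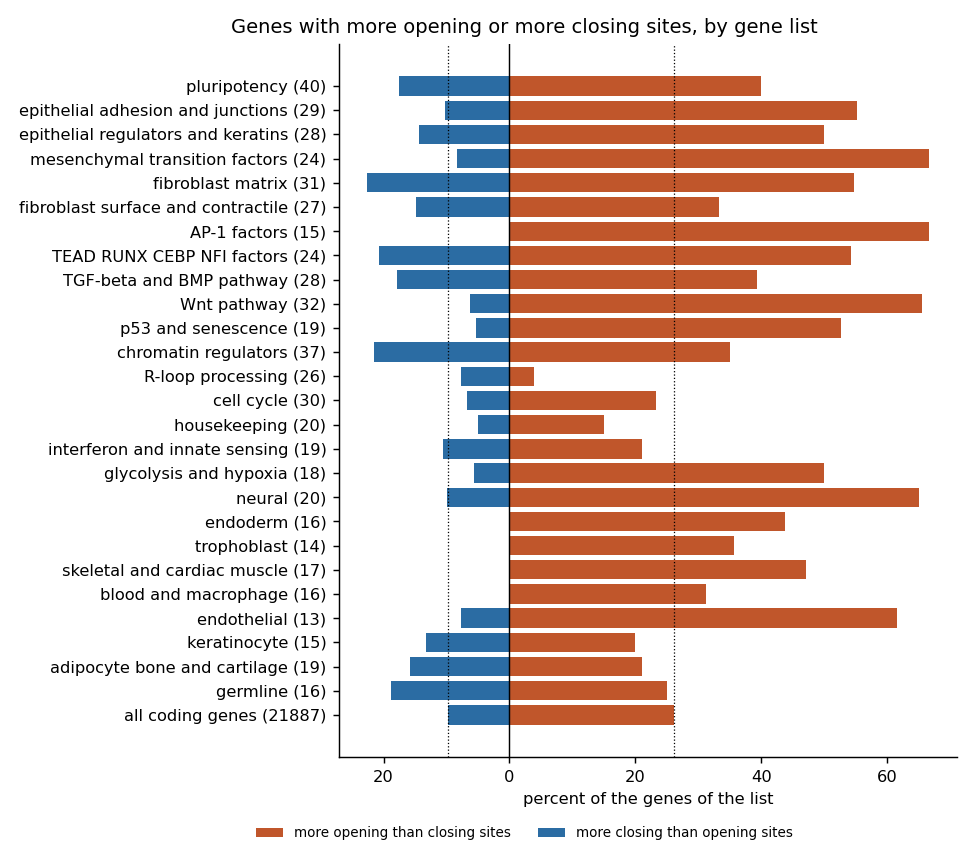
Bars give, for each gene list (number of coding genes in parentheses), the percent of genes with more opening sites (right) and with more closing sites (left) within 20 kb, and dotted lines mark all coding genes at 26.2% and 9.84%. The AP-1, mesenchymal and Wnt lists reach 66.7%, 66.7% and 65.6% on the opening side, and the R-loop processing list is at 3.85%.

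Some genes with several annotated starts kept one and gained another. Of 2761 such genes, 170 (6.16%) kept one start and gained another, 27 kept one and lost another, and 4 (Begain, Cfap126, Kcnab1 and Ppp1r10) gained one and lost another without keeping any. Gains outnumbered losses over all windows as well, at 1189 to 130, and 5.27% of all genes gained a start peak. These genes were singled out after the counts were seen. Among list members Ccnd3, a G1 cyclin, gained the start at 47505051 on chromosome 17 and kept that at 47593467. Wnt5b, a ligand, gained its upstream start at 119544347 on chromosome 6, Tcf7, a Wnt effector, gained a start 419 bp from a kept one, and Bbc3, a p53 target, gained the third of its starts. Kdm2b, a CpG-binding demethylase, lost a peak at 1 of 4 starts.

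A microRNA locus linked to pluripotency was among the closing sites. MicroRNAs pair with messages through the seed, bases 2 to 8, which is in capitals below, and those with the same seed share most targets. Of 1005 hairpins listed by RefSeq, 35 (3.48%) had an opening and 13 (1.29%) a closing site within 1 kb. The 13 rest on 9 closing sites, since neighbouring hairpins share a site, and the hairpins shown were picked after their values were seen. The Mir302 and Mir367 hairpins lie in 1 cluster on chromosome 3 and are abundant in embryonic stem cells. One closing site of 146 bp, from 127544801 to 127544946, lay 282 bp before Mir302b and within 787 bp of Mir367, and neither D209N list had a peak within 1 kb. This site accounts for 5 of the 13 hairpins and is narrower than the 150 bp asked for in an alternative. Their mature arms were
mmu-miR-302b-3p: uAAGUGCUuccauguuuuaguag
mmu-miR-302d-3p: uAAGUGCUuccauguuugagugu
mmu-miR-302c-3p: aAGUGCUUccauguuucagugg
mmu-miR-367-3p: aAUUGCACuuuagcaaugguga
The arms of Mir302b and Mir302d share the seed AAGUGCU, that of Mir302c begins 1 base later (AGUGCUU), and that of Mir367 has another seed.

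Opening sites near hairpins included those of microRNAs of the nervous system and of secretory epithelium. Mir375, known from endocrine cells and epithelia, lay inside an opening site of 472 bp on chromosome 1 from 74900519 to 74900990. D209N had a peak within 1 kb of this hairpin at day 7. Mir9-1 and Mir9-3, which encode the same neural microRNA, had opening sites at 281 and 64 bp, and Mir219a-2 and Mir129-1 at 517 and 570 bp. Mir125b-1, expressed in fibroblasts, had a closing site of 788 bp at 705 bp, and D209N had peaks within 1 kb of it on both days. The mature arms below differ from each other in seed, and Mir9-1 and Mir9-3 share that of miR-9-5p:
mmu-miR-9-5p: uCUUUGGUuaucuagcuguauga
mmu-miR-219a-5p: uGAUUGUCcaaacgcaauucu
mmu-miR-129-5p: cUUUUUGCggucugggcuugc
mmu-miR-125b-5p: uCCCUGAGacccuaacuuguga
No count of microRNA was made here, so these are positions of sites only.

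Wider Flag sites were more often present in the D209N lists. Of all opening sites 58.8% (58.0 to 59.6) overlapped a D209N day 7 peak and 10.9% a D209N day 3 peak. In the lowest width quartile of opening sites, up to 227 bp, the day 7 share was 34.7%, and in the highest quartile, from 391 bp, it was 84.7%. At gene starts it was 74.3% (71.6 to 76.8) and elsewhere 57.6% (56.8 to 58.4). Of the closing sites 42.0% (40.9 to 43.1) overlapped a D209N day 3 peak, from 16.7% in the lowest width quartile to 75.6% in the highest. At D209N day 7 19.7% (18.9 to 20.6) of Flag closing sites were listed. For shared peaks the D209N shares were 80.8% at day 3 and 94.5% at day 7. The D209N day 3 list was the shorter, with 29189 peaks against 40452 at day 7. How many narrow sites lie near the threshold of the peak caller was not tested.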

How the data were processed

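ATAC-seq peak lists of the Flag and RNase H1(D209N) arms at days 3 and 7 were used, 1 per group of 2 replicates. Per the submitters' processing notes, the authors used CASAVA and Bowtie2 2.3.2; the notes name the builds mm10 and GRCm38.p5. How peaks were called, at which threshold and from which replicates was not given in the sources used here, though every peak name carries rep1. The deposited values are start and end positions, without counts, so read depth is unknown. Peak names state the arm and the day, which tied every list to a group. Mitochondrial intervals, 3 per list, were dropped. Others were kept at any width, although 706 at day 3 and 1214 at day 7 in Flag were under 150 bp.

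Overlaps of at least 1 bp were found with numpy 2.4.6 and pandas 2.3.3 under Python 3.11.15, and the joins were tested on simulated lists. Gene positions, start windows and sequences came from RefSeq tables of GRCm38.p6, whose main chromosomes are those of mm10. A site inside several genes went to the shortest. Wilson intervals were computed from their formula, and correlations came from scipy. Named genes were list members, the 8 genes with the largest surplus in each direction, the genes at the 6 widest sites and those in the 5 fullest windows of 200 kb of each class. Sequences were chosen by peak width among the pluripotency, epithelial, mesenchymal and matrix genes that gained or lost a start peak. The members and the gene lists were chosen with earlier results of these data known. Where labels give replicates, nothing says whether they were separate cultures. One gene of the 8 with the largest surplus of closing sites is not reported here.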

Additional observations from a re-analysis of the deposited data

Results flagged for a closer look

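Chromosome X had 58 fewer opening than closing sites in Flag (a difference of -58, from 217 and 275), while in D209N it had more opening (294) than closing sites (134). Over the whole D209N lists there were 16315 opening and 4729 closing sites, against 14546 and 8271 in Flag. The D209N day 3 list was shorter, with 29189 peaks against 36375 in Flag. The opening share of X in D209N, 34.5%, was below the 37.1% to 44.2% of the autosomes there. The difference between the arms was not tested. Arhgef16 lost a start peak in Flag and gained one in D209N, and its difference of opening and closing sites within 20 kb in Flag was -1, from a single closing site of 336 bp. This difference between the arms was not tested either. Each rests on 1 list per group.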

How the results depend on the processing

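No paired analysis was possible because each group has 1 list and the lists carry no replicate columns. Limits come first from unknown depth and from 1 list per condition. The count of opening sites moved to 2018 and that of closing sites to 1492 when only peaks above the median width of their list were counted. Each count was within 1.5 times of the reported one with a gap of 500 bp. The same held with a larger overlap asked for (0.5 of the shorter peak) and with equal list lengths. It also held with intervals of at least 150 bp, a setting chosen after seeing the data. Equal list lengths bring the opening and closing counts together by construction, so that setting does not test their difference. Within 1 kb of a gene start lay 11.9% of opening sites, 3.84% of closing sites and 38.2% of shared peaks, and within 2.5 kb 16.5%, 7.17% and 41.3%. With a peak within 500 bp counted as present, 61.0% of opening and 22.0% of closing sites were present in D209N at day 7. Within 250 kb, also chosen after seeing the data, the median number of coding genes was 6 at opening and 3 at closing sites. Gained and lost start peaks over all genes stayed within 1.5 times of 921 and 95 under the 3 alternatives run. Of 52 counts for gene lists 33 were equal and 19 differed with 1 kb on each side of the start. All 16 named genes had the same direction with sites assigned within 100 kb.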
